A study of Mus musculus with 11 samples.

Results

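The 7 genes described here encode factors of translation elongation and a kinase that acts on them, and were measured by RNA-seq of single 8-cell mouse embryos with and without *Prdm10*. They are *Eef1d*, *Eef1a1*, *Eef1b2*, *Eef1g*, *Eef1e1*, *Eef2* and *Eef2k*, matched by Ensembl identifier among the 54146 genes of each table. *Eef1d* was chosen by the fall of its TPM and read counts in *Prdm10* mutants against controls, so its difference between the groups is given as a description and was not tested, and the other 6 were chosen because they belong to the same family or pathway. The 11 embryos were C57BL/6, had *Prdm10* heterozygotes as both parents, were taken at embryonic day 2.5, and gave 1 library each. The 6 controls carried the label Prdm10 WT/HET, which does not divide wild-type from heterozygous embryos, and the 5 mutants the label Prdm10 KO, with exon 5 deleted on both alleles, an allele that the study made with an ACTB-Cre. Batch 1 held 3 controls and 2 mutants and was pre-amplified with 16 PCR cycles, and batch 2 held 3 controls and 3 mutants and was pre-amplified with 13 cycles. RNA left from the egg cannot be told apart from RNA made by the embryo in these tables. In whole embryos, fewer cells and less RNA per cell cannot be told apart either.

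During elongation, eEF1A carries an aminoacyl-tRNA to the ribosome and leaves bound to GDP. The eEF1B complex then exchanges that GDP for GTP. Its subunits eEF1B2 and eEF1D both carry exchange activity, while eEF1G holds the complex together. EEF1E1, also known as AIMP3, is a small protein of the multi-synthetase complex that is related to the eEF1 subunits in sequence. eEF2 moves the ribosome along the mRNA, and eEF2 kinase, encoded by *Eef2k*, inactivates it by phosphorylation.

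The summed expected counts, which are RSEM's estimates of the reads from each gene, ranged from 3534735 to 8265840 per library. *Prdm10* itself had a TPM (a level scaled for gene length and library size) of 16.5 ± 4.62 over controls (SD, n = 6) and 6.66 ± 1.47 over mutants (SD, n = 5). The embryos had been assigned to their groups by detection of exon 5 of this gene in the same cDNA. Its read count over the whole gene differed by a log2 fold change of -0.66 ± 0.26 (SE, DESeq2 adjusted p = 0.215). Its TPM ranged from 11.1 to 24.8 in controls and from 4.88 to 8.16 in mutants. The gene length used to scale that TPM was longer in every mutant than in any control. As this gene assigned the groups, nothing is read from these values. All 6 markers of the 8-cell embryo were above 0 in every library, with a summed TPM of 4791 to 6226 in controls and 5038 to 5898 in mutants. *Klf5*, which is among these markers, was itself higher in mutants, with a log2 fold change of 0.84 ± 0.14 (SE, DESeq2 adjusted p = 1.07e-06). Of 6 cumulus and granulosa markers, *Has2* and *Ptx3* were at 0 in every library and the summed TPM stayed at or below 0.47 in controls and 0.3 in mutants. Markers of oviduct epithelium summed to 0 to 24.2 TPM in controls and 0 to 31.9 TPM in mutants, with *Krt5* at 0 throughout, and 4 blood markers summed to 0.23 to 11.1 TPM in controls and 0.16 to 2.34 TPM in mutants, with *Hbb-bt* at 0 throughout. Their part in the results was not tested.

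The DNA element that PRDM10 was tested on in the study's gel-shift assays is shown by its probes, in which capitals mark the bases that were exchanged to break it. They are shown because they give the letters that were then looked for near the starts of the elongation factor genes.
WT probe: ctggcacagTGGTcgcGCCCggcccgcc
MUT probe: ctggcacagCAACcgcATTTggcccgcc
The letters TGGTNNNGCCC, taken from the exchanged bases, were searched on both strands of the RefSeq promoter windows (GRCm38.p6, 250 bases before to 50 after a gene's start). They were found in 476 of 32851 windows (1.45%), and in none of the windows of the 5 members that had one, *Eef1a1*, *Eef1b2*, *Eef1e1*, *Eef2* and *Eef2k*. *Eef1d* and *Eef1g* had no window. A looser search, TGGTNNNNNCC, which holds every match of the first, was met by 13.8% of all windows. It was met in the window of *Eef1e1*, upstream of the start at chr13:38659152-38659182 (minus strand), where capitals mark the letters searched.
Eef1e1 promoter match: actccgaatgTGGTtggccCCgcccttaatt
The looser letters were also found once in *Eef2k*, downstream of its start. A match is a run of letters and was not tested as a binding site.

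*Eef1d* (ENSMUSG00000055762.16, chromosome 15 from 75894205 to 75909556 on the minus strand, GRCm38) was lower in every mutant embryo than in any control. In batch 1 its TPM was 641, 620 and 522 in the controls and 94.5 and 59.1 in the mutants. In batch 2 it was 399, 362 and 426 in the controls and 55.2, 84 and 95.5 in the mutants. The lowest control thus stood far above the highest mutant in both batches, and the groups did not overlap. All mutants lay below all controls for 0.574% of the 10448 genes tested, and as *Eef1d* was chosen for this contrast, nothing is read from that share. The mean TPM was 495 ± 118 over controls (SD, n = 6) and 77.7 ± 19.3 over mutants (SD, n = 5).

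On normalised counts, which are scaled for library size but not for gene length, *Eef1d* averaged 1955 ± 319 over controls (SD, n = 6) and 282 ± 77.2 over mutants (SD, n = 5). Fitted with batch as a term, the log2 fold change came to -2.77 ± 0.20 (SE), with a 95% interval from -3.17 to -2.38, which is 6.83-fold lower in mutants. RNA counted for *Eef1d* was present in every mutant, with 186 to 429 expected counts per library. The fold change was -3.15 ± 0.26 (SE) in batch 1 alone and -2.48 ± 0.27 (SE) in batch 2 alone. In a further DESeq2 fit over all embryos, the batch by group interaction, batch 2 minus batch 1, was 0.68 ± 0.38 (SE) on the log2 scale. It is given without a test because both within-batch contrasts entered the choice of the gene.

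**Figure D1:**
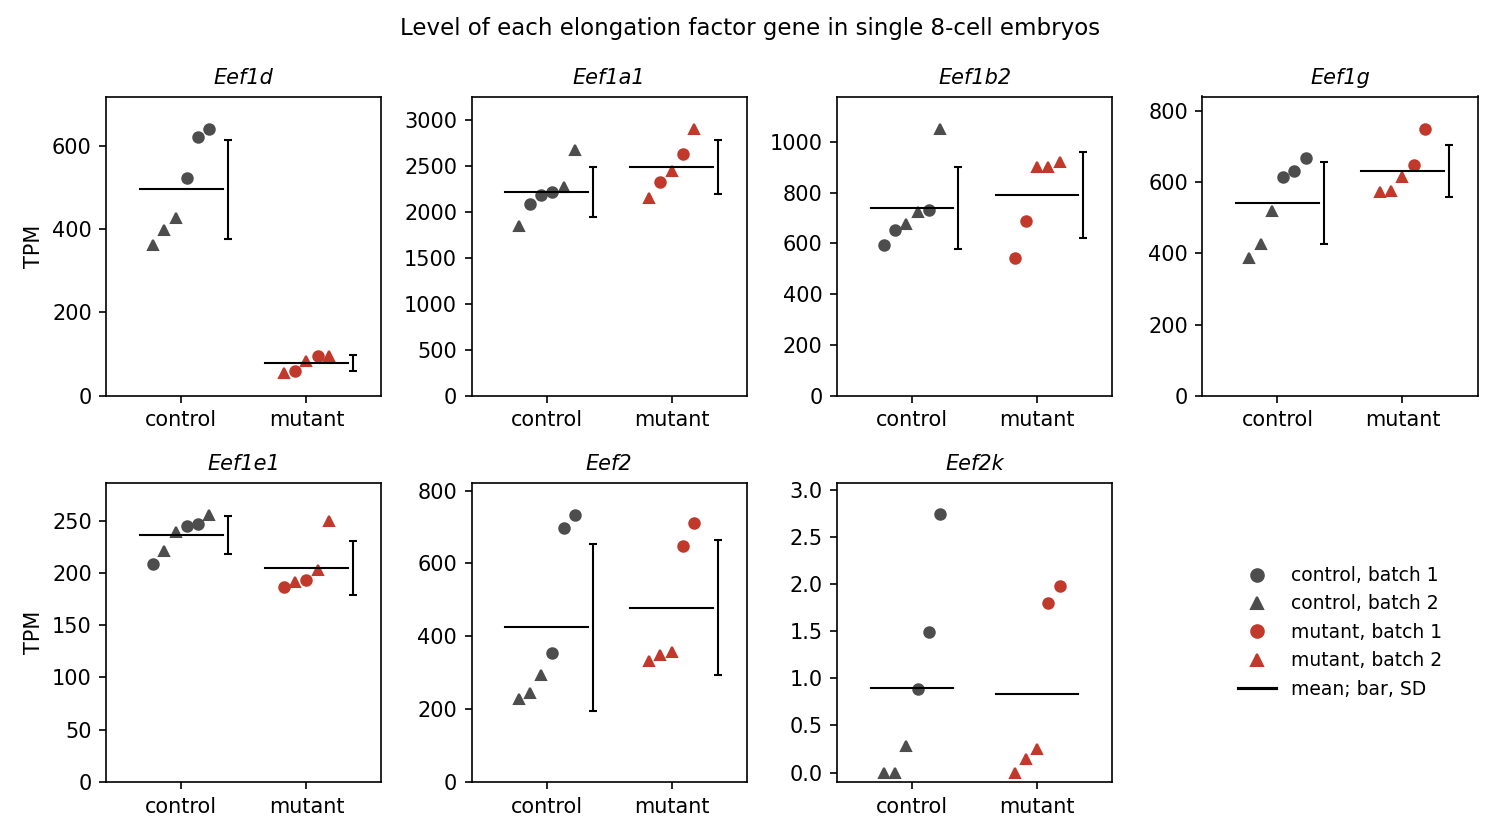
TPM of the 7 genes in each embryo, by group (x axis), with circles for batch 1 and triangles for batch 2, a line for the mean and a bar for the SD (no SD is drawn for *Eef2k*). The groups are apart for *Eef1d*, with 362 TPM in the lowest control and 95.5 TPM in the highest mutant, and overlap for the other 6 genes.

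The question was then whether the partners of *Eef1d* in the eEF1B complex, and the eEF1A that the complex serves, were lower in the same embryos. None of them passed the test in either direction. Of the 6 other genes, 5 had a mean normalised count above 10, and 0 of these 5 were called at a DESeq2 adjusted p under 0.05, against a background of 151 calls among 10448 genes (1.45%). At an unadjusted p under 0.05 there was 1, *Eef1g*, with a positive fold change, and 11.9% of all genes tested met that threshold. The edgeR quasi-likelihood test called 0 of the 5 as well, with a background of 0.334%. Limma on log2(TPM + 1) also called 0, with a background of 22 of 10489 genes (0.21%).

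*Eef1b2*, the other subunit with exchange activity, had a TPM of 592 to 1053 in the controls, with a median of 701. In the mutants it was 901, 919 and 902 in batch 2 and 541 and 688 in batch 1. The groups overlapped in both batches. Its log2 fold change was 0.01 ± 0.17 (SE, DESeq2 adjusted p = 0.993), with a 95% interval from -0.32 to 0.34. In fold terms that interval runs from 0.801 to 1.27, so a fall of the size seen for *Eef1d* lay outside it. The sign of the estimate turned in 6 of 20 alternative fits, so it has no direction here.

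*Eef1g*, which joins the exchange subunits, had a TPM of 388 to 669 in the controls, with a median of 568. It was 574, 574 and 615 in the mutants of batch 2 and 751 and 649 in those of batch 1. The groups overlapped over both batches and within batch 1, whereas in batch 2 all 3 mutants were above all 3 controls, as were 5.84% of all genes tested. Fitted over both batches, *Eef1g* differed by 0.30 ± 0.13 on the log2 scale (SE), within a 95% interval from 0.04 to 0.56, which lay above 0, but the adjusted p was 0.308 by DESeq2 and 0.448 by edgeR. A processed pseudogene, *Gm4366*, shares sequence with *Eef1g* and held counts that amounted to 5.43% of those of *Eef1g*. Its own log2 fold change was 0.62 ± 0.29 (SE, DESeq2 adjusted p = 0.368). With the counts of the pseudogenes added, the log2 fold change of *Eef1g* was 0.32 (DESeq2 adjusted p = 0.288). For the other members, genes sharing sequence held at most 0.976% of the member's counts.

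*Eef1a1*, which encodes the widely expressed form of eEF1A, was the most abundant of the 7 in all 11 libraries. Its TPM was 1841 to 2674 in controls, with a median of 2196, and it was 2904, 2147 and 2438 in the mutants of batch 2 and 2624 and 2322 in those of batch 1. The groups overlapped, although in batch 1 both mutants exceeded the 3 controls, as did 12.0% of all genes tested. Its log2 fold change was 0.17 ± 0.13 (SE, DESeq2 adjusted p = 0.687), with a 95% interval from -0.09 to 0.43. The level of *Eef1a2*, the other eEF1A gene, averaged 0.0167 TPM in controls and was 0 in mutants.

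*Eef1e1* had a TPM of 208 to 255 in the controls, with a median of 242. In the mutants it was 249, 203 and 191 in batch 2 and 187 and 193 in batch 1. Both mutants of batch 1 were below the controls of that batch, as they were for 11.6% of all genes tested, and the groups overlapped in batch 2. *Eef1e1* differed by -0.14 ± 0.16 on the log2 scale (SE, DESeq2 adjusted p = 0.816), within a 95% interval from -0.45 to 0.17. This was the lowest limit among the 5 tested genes, and corresponds to 0.733 of the control level.

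**Figure D2:**
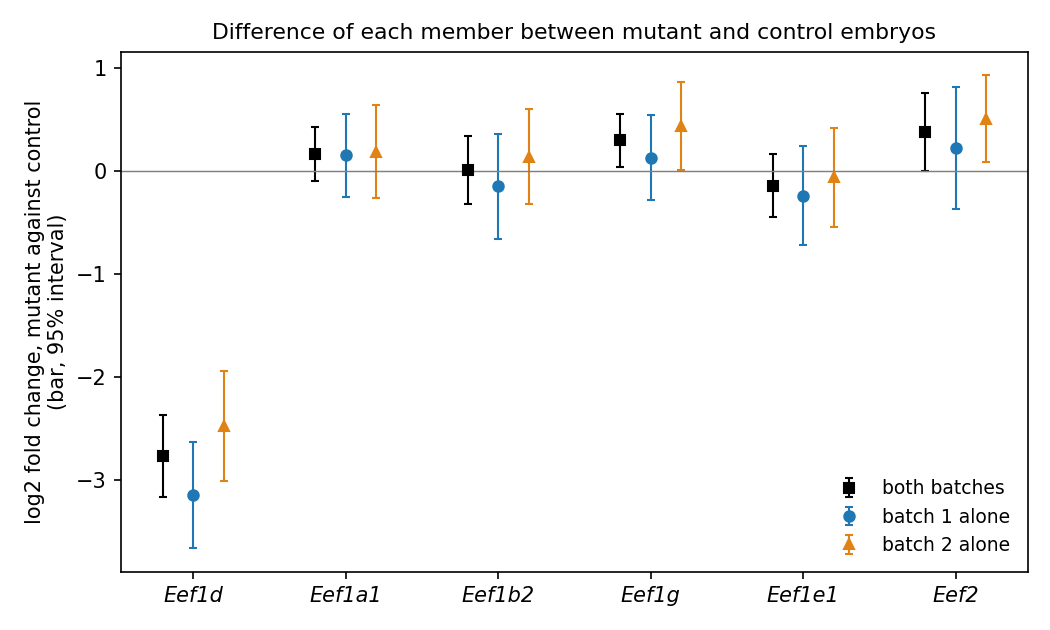
Log2 fold change of mutants against controls (y axis) for *Eef1d* and the 5 other genes that could be tested (x axis), from normalised counts in both batches (black squares), batch 1 alone (blue circles) and batch 2 alone (orange triangles), with 95% intervals. *Eef1d* lies at -2.77, while the intervals over both batches for the others run no lower than -0.45.

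The levels within single embryos show the balance of the eEF1B subunits. In controls the TPM of *Eef1d* was 0.695 to 1.03 times that of *Eef1g*, and in mutants 0.0912 to 0.155 times. As a share of the summed TPM of *Eef1d*, *Eef1b2* and *Eef1g* it made up 18.7% to 34.4% in controls and 3.61% to 6.81% in mutants. These shares restate the level of *Eef1d* that chose it, and were not tested. The TPM of *Eef1b2* relative to *Eef1g*, which *Eef1d* does not enter, averaged 1.43 ± 0.463 over controls (SD, n = 6) and 1.28 ± 0.383 over mutants (SD, n = 5), and the ranges overlapped.

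The order of mean TPM in controls was *Eef1a1*, *Eef1b2*, *Eef1g*, *Eef1d*, *Eef2*, *Eef1e1* and *Eef2k*. *Eef1a1* was apart from the next gene, and *Eef1e1* was apart from *Eef2k*, but the ranges of each pair of neighbours from *Eef1b2* down to *Eef1e1* overlapped. *Eef1d* ranked from 3 to 5 of 7 in the controls. In mutants it ranked 6 of 7 in every embryo, apart from *Eef1e1* above it and from *Eef2k* below.

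*Eef2*, the translocase, varied more with batch than with genotype. Its TPM in batch 1 was 734, 696 and 354 in the controls and 647 and 711 in the mutants. In batch 2 it was 228, 294 and 244 in the controls and 332, 348 and 356 in the mutants. Control replicate 6 was thus the only library of batch 1 within the range of batch 2. Between the groups, the log2 fold change was 0.38 ± 0.20 (SE, DESeq2 adjusted p = 0.439), with a 95% interval from -0.0036 to 0.76. Over both batches the groups overlapped, and in batch 2 all 3 mutants were above all 3 controls, as for 5.84% of all genes tested.

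Between the batches, 2 of the 6 genes that could be tested changed, against a background of 27.9% of all genes, so the share among these genes was close to that of genes in general. *Eef2* was lower in batch 2 than in batch 1 by a log2 difference of -1.24 ± 0.20 (SE, DESeq2 adjusted p = 1.49e-08). The difference was -1.37 without control replicate 6 and -1.37 in the controls alone, and the edgeR adjusted p was 0.000335. *Eef1b2* was higher in batch 2 by 0.59 ± 0.17 (SE, DESeq2 adjusted p = 0.00404). In the controls alone this was 0.46, with a DESeq2 adjusted p of 0.254. For *Eef1d* the batch difference was -0.10 ± 0.20 (SE, DESeq2 adjusted p = 0.78), and -0.38 ± 0.22 in the controls alone (SE, DESeq2 adjusted p = 0.271). The batches differed in PCR cycles and in when embryos were isolated and processed, which cannot be told apart. In the batch by group interaction, 0 of the 5 genes other than *Eef1d* passed the threshold by DESeq2 or by edgeR, against 0.0382% of all genes by DESeq2 and 0.0% by edgeR. At an unadjusted DESeq2 p under 0.05 there were 0 of the 5, and 4.3% of all genes.

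*Eef2k* was barely detected. In batch 1 its TPM was 0.89 to 2.75 in controls, and 1.98 and 1.8 in the mutants. In batch 2 it was 0 to 0.28 in controls, and 0.14, 0.25 and 0 in the mutants. The log2 difference of batch 2 from batch 1 was -2.18 ± 1.03 (SE, DESeq2 adjusted p = 0.112). The median TPM of *Eef2k* over controls was 0.585. At most 19 expected counts fell on it in any library and 3 of 11 libraries had 0, so its mean normalised count of 6.49 was below the minimum for a call. The log2 fold change was 1.26 with a 95% interval from -0.77 to 3.29, which is too wide to show whether it differed at this depth.

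RSEM's effective length of a gene, which averages over the transcripts to which reads were assigned, gave a second view of *Eef1d*. It was 853, 890, 813, 826, 904 and 866 bases in the controls and 782, 747, 781, 761 and 743 bases in the mutants. All 5 mutants were shorter than all controls. The mean was 859 ± 35.4 bases over controls (SD, n = 6) and 763 ± 18.3 bases over mutants (SD, n = 5), a difference of -95.9 bases. It was -113 bases in batch 1 and -82.1 bases in batch 2. The effective length comes from the same libraries and the same contrast that chose *Eef1d*, and it enters the TPM, so it is given without a test. Groups that did not overlap in effective length, in either direction, were found for 0.383% of all genes tested and for none of the other 6 genes here. The annotation lists 18 transcripts of *Eef1d*, from 350 to 2856 bases long, and the share of each was not analysed here. With the effective length as an offset in the fit, the log2 fold change of *Eef1d* was -2.59.

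**Figure D3:**
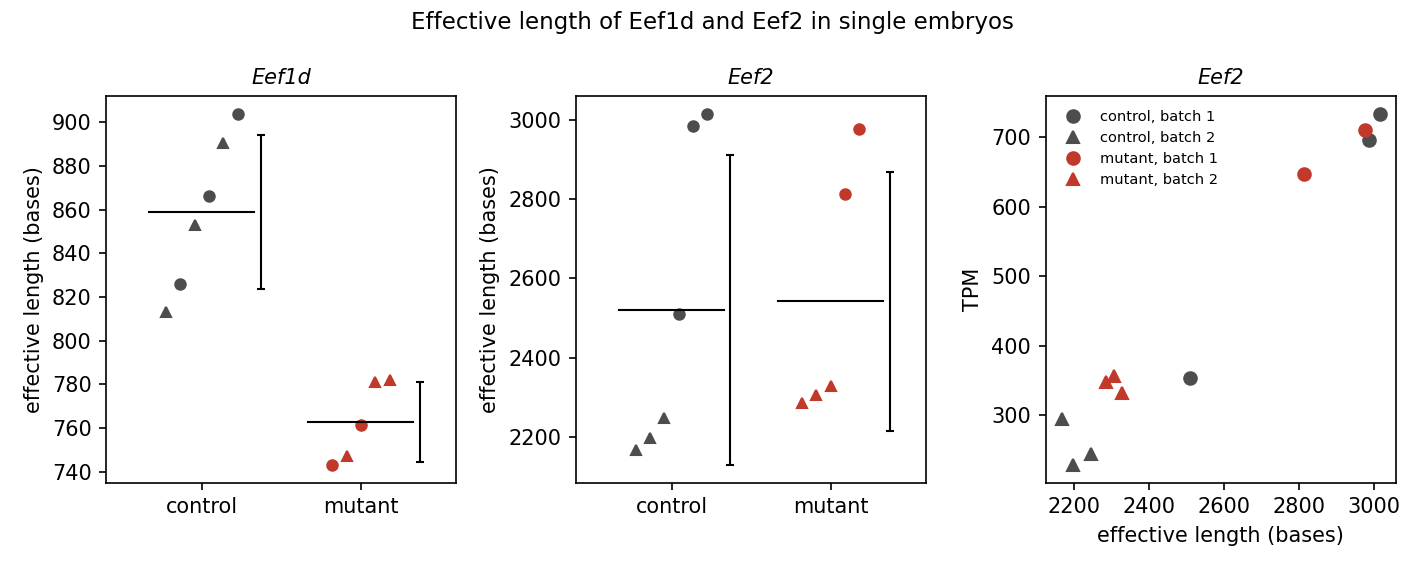
Effective length in bases of *Eef1d* (left) and *Eef2* (middle) in each embryo by group, with mean and SD, and TPM of *Eef2* against its effective length (right), with circles for batch 1 and triangles for batch 2. The y axes do not start at 0. For *Eef1d* the mutants reach at most 782 bases and the controls at least 813, while *Eef2* is longest in batch 1, at 2509 to 3015 bases.

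For *Eef2* the effective length moved with batch. It was 2509 to 3015 bases in the 5 libraries of batch 1 and 2167 to 2328 bases in the 6 of batch 2. Control replicate 6, the batch 1 library with the lowest TPM of *Eef2*, also had the shortest effective length of that batch. The part of this in the batch difference of *Eef2* was not tested.

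The genes around *Eef1d* gave little signal. *Tigd5* starts 179 bases from the start of *Eef1d* on the opposite strand, and had a count in control replicate 4 alone. *Naprt*, on the same strand, starts within the end of *Eef1d* and overlaps it by 277 bases, and averaged 0.725 ± 0.723 TPM over controls (SD, n = 6) and 0.916 ± 0.909 TPM over mutants (SD, n = 5). Neither had enough counts to be called. Reads in the overlap with *Naprt* cannot be assigned to either gene with certainty, but *Naprt* held a mean normalised count of 2.56 against 1195 for *Eef1d*.

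Genes whose levels followed *Eef1d* most closely over the 11 embryos were sought among 5536 other genes with a mean normalised count above 100, by Pearson's r of log2 normalised counts after removal of each batch mean. The values describe libraries that share the division into mutants and controls, and carry no test. The highest were *2410006H16Rik* (r = 0.975), *Rnasek* (r = 0.964), *A430005L14Rik* (r = 0.951), *Selenow* (r = 0.941), which encodes selenoprotein W, and *Eif3b* (r = 0.925), a core subunit of the initiation factor eIF3. Their log2 fold changes were -2.71, -2.28, -0.35, -3.90 and -1.24. Among the elongation factors, r with *Eef1d* ran from -0.66 for *Eef1g* to 0.30 for *Eef1e1*.

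Around these 7 genes, 56 others that act in or on elongation were taken as 5 lists. Of the 53 that could be tested, 0 were higher and 2 lower in mutants, *Dohh* and *Calm2*, against 1.45% of all genes called (59 higher and 92 lower), and the median log2 fold change was 0.01, against 0.00 over all genes tested. At an unadjusted p under 0.05 there were 9, of which 4 were lower, against 1248 of 10448 genes in all (11.9%), of which 648 were lower. The edgeR test called 1 of the 2, *Dohh*, against 0.334% of all genes.

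*Dohh* (chromosome 10 from 81384428 to 81388352, plus strand) encodes deoxyhypusine hydroxylase, which completes the hypusine residue of the elongation factor eIF5A. Its normalised count in batch 2 was 227, 321 and 332 in controls and 69.4, 127 and 106 in mutants. In batch 1 it was 572, 634 and 291 in controls and 226 and 273 in mutants. All mutants were below the controls of their own batch, on these counts and on TPM, while over both batches the groups overlapped. On TPM, mutants were below the controls for 11.6% of all genes tested in batch 1 and 6.69% in batch 2. The share for which this held in both batches was not computed. Over both batches *Dohh* fell by 1.29 ± 0.26 (SE) on the log2 scale, and the adjusted p was 0.000191 by DESeq2 and 0.038 by edgeR. By limma on log2(TPM + 1) the adjusted p was 0.079. The call was made whichever embryo was left out, and was lost in batch 1 alone (log2 fold change -0.99) and without the batch term (-1.31). Of the other genes of eIF5A and its hypusination on the lists, *Dhps*, the synthase, was at -0.07 ± 0.19 (SE, DESeq2 adjusted p = 0.948), *Eif5a* at 0.14 ± 0.14 (SE, DESeq2 adjusted p = 0.78) and *Eif5a2*, with far fewer counts, at -1.05 ± 0.66 (SE, DESeq2 adjusted p = 0.561).

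*Calm2* encodes calmodulin, which activates eEF2 kinase and many other enzymes. Its normalised count in batch 2 was 2152, 2179 and 2367 in controls and 1701, 1304 and 1080 in mutants, and in batch 1 it was 927, 1284 and 1693 in controls and 677 and 869 in mutants. Here too the mutants were below the controls of their own batch, on these counts and on TPM. On TPM this held for 11.6% of all genes tested in batch 1 and 6.69% in batch 2. Its log2 fold change over both batches was -0.73 ± 0.18 (SE, DESeq2 adjusted p = 0.0136), but the adjusted p was 0.132 by edgeR and 0.0841 by limma on log2(TPM + 1). The call was also lost without mutant replicate 2 (log2 fold change -0.72), mutant replicate 3 (-0.66) or mutant replicate 4 (-0.67), without the batch term (-0.65), and in batch 1 (-0.75) and batch 2 (-0.71) alone. *Calm3*, which also encodes calmodulin, differed by -0.49 ± 0.21 on the log2 scale (SE, DESeq2 adjusted p = 0.283) and was not called.

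**Figure D4:**
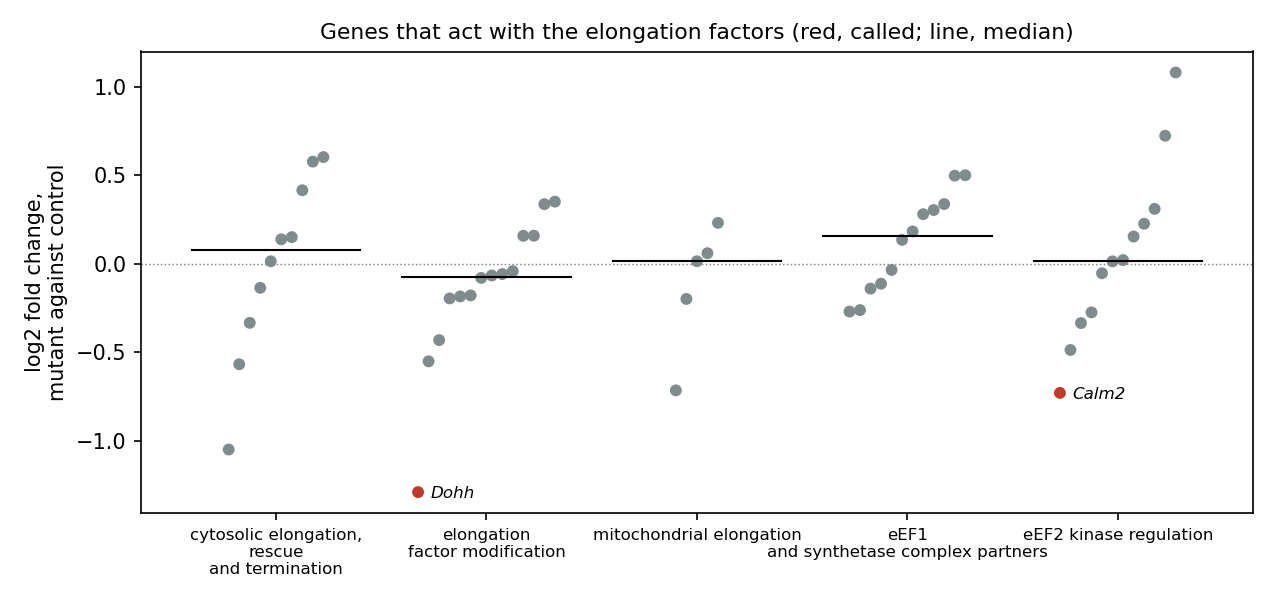
Log2 fold change of mutants against controls (y axis) for the 53 tested genes of 5 lists (x axis), with red points for called genes and a line for each list's median. *Dohh* at -1.29 and *Calm2* at -0.73 are the called genes, and the medians lie between -0.07 and 0.16.

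Among cytosolic elongation, rescue and termination factors, 10 of 12 could be tested, with a median log2 fold change of 0.08. They include *Eif5a*, and also *Gspt1* and *Etf1*, the release factors, at 0.15 ± 0.15 (SE, DESeq2 adjusted p = 0.77) and -0.14 ± 0.16 (SE, DESeq2 adjusted p = 0.825). Among enzymes that modify elongation factors, including the diphthamide pathway of eEF2 and the methyltransferases of eEF1A, 14 of 15 could be tested and their median was -0.07, with *Dohh* the one call. The 5 mitochondrial factors had a median of 0.01, and ranged from -0.72 for *Guf1* to 0.23 for *Gfm1*. The 12 partners of the eEF1 and synthetase complexes had a median of 0.16. Their 4 members with an unadjusted p under 0.05, *Lars*, *Qars*, *Kars* and *Tpt1*, had positive fold changes, and none passed after adjustment. Genes with such a p and a positive fold change made up 5.74% of all genes tested. *Tpt1*, whose protein binds eEF1A and its exchange complex, had 0.50 ± 0.16 (SE, DESeq2 adjusted p = 0.0929). The 12 regulators of eEF2 kinase had a median of 0.02, with *Calm2* the one call.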

How the data were processed

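Single embryos were lysed and amplified with a Smart-seq2 protocol primed by oligo-dT, tagmented with Nextera XT and sequenced from 1 end, without strand or molecular identifiers. Per the labels and the study's methods, the authors mapped reads to GRCm38.p6 with STAR (version 2.6.0c) and quantified genes with RSEM. The deposited expected counts are RSEM estimates, with fractions where a read fits several genes. The deposited TPM values are scaled by the authors to a fixed total per library, and the deposited effective length is RSEM's mean over transcripts. The authors' deposited comparison table (DESeq2 mean of normalised counts, log2 fold change, standard error, statistic, p-value and adjusted p-value) was not used.

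Gene symbols and coordinates were taken from GENCODE vM21 (same build, newer than the authors' release), which matched 54079 of 54146 identifiers. Expected counts were rounded, and fitted for all genes with batch and group as terms in DESeq2 (version 1.42.0, R version 4.3.3; Wald test, Benjamini-Hochberg adjustment). Genes with an adjusted p under 0.05 and a mean normalised count above 10 were called. Standard errors and 95% intervals are from this fit, except where a batch alone, the controls alone or the batch by group interaction is named. Those are from their own DESeq2 fits. Alternatives were edgeR (version 4.0.16, quasi-likelihood), limma (version 3.58.1) on log2(TPM + 1), TMM factors, other filters (none, a mean above 100, or 10 counts in 5 libraries), no batch term, each batch alone, an effective-length offset, counts summed with genes that share 31-base sequences, and each embryo left out. The script was tested on simulated data. The effective length of *Eef1d* was planned as an exact permutation test, but is given as a description, since it stems from the contrast that chose the gene. Genes sharing sequence were those with over 20% of their 31-base sequences in a member, a limit chosen after seeing the data. Depth was 3534735 to 8265840 counts per library, and intervals on reads that PCR may have copied cover the spread between these libraries alone. Replicate numbers only name embryos within a group. Whether the embryos shared litters is not given in the sources used here. The named genes were the members, called genes of the lists, the nearest neighbours of *Eef1d*, the 5 genes most like it in pattern, and sequence-sharing genes with over 1% of a member's counts. The members and lists were chosen with earlier results of these data known.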

Additional observations from a re-analysis of the deposited data

Results flagged for a closer look

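In 23 sets of values (the TPM of each member, the effective length of *Eef1d* and the normalised counts of *Dohh*, *Calm2*, *Naprt* and *Tigd5*, in each group, without the mutants for *Tigd5*, which were all at 0), a value that stood apart from the rest of its group was looked for with Dixon's test, which picks out about 1 set in 20 by chance. It picked out 3. The TPM of *Eef1b2* was 1053 in control replicate 2, the library with the fewest counts, against 592 to 731 in the other controls, and without that embryo the log2 fold change of *Eef1b2* was 0.09 (DESeq2 adjusted p = 0.893). The TPM of *Eef1e1* was 249 in mutant replicate 1, against 187 to 203 in the other mutants, and without that embryo its log2 fold change was -0.23 (DESeq2 adjusted p = 0.589). *Tigd5* had a normalised count of 5.74 in control replicate 4 and 0 in the other controls. With the other controls all at 0, this set was bound to be picked out, so the rate of 1 in 20 does not apply to it.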

How the results depend on the processing

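For the members other than *Eef1d*, 0 were called in any alternative run, whether on 1 batch or with an embryo left out, and the batch by group interaction likewise called 0 of them. The number of genes called over all genes moved from 151 to 35 with edgeR, 22 with limma on log2(TPM + 1), 51 without a batch term, 78 in batch 1 and 48 in batch 2. It ranged from 90 to 265 when an embryo was left out, with 265 without control replicate 2, 90 without mutant replicate 2 and 91 without mutant replicate 5. Lower genes made up 43.0% of the calls without control replicate 2, and 95.5% by limma. The 2 calls among the lists became 1 with edgeR and in batch 2, and 0 with limma, without a batch term and in batch 1. They ranged from 1 to 3 when an embryo was left out. The 2 members that differed between batches became 1 in the controls alone. The causes were not tested. Fits on a batch or on controls also held fewer embryos, and the part of this was not tested either. The log2 fold change of *Eef1d* ran from -3.15 to -2.48, both in fits on 1 batch. The difference in its effective length ran from -105 to -86.9 bases when an embryo was left out. No paired analysis was possible because the replicate numbers were given in order within each group and the labels tie no embryos across groups. A difference between mutants and controls in *Eef2k*, which had at most 19 expected counts in a library, was not detectable at this depth.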
